A study of Mus musculus with 20 samples.

Results

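Voltage-gated calcium channels were followed through 10 of their subunit genes in lumbar dorsal root ganglia of the mouse, which hold the cell bodies of the sensory neurons of trunk and hind limb. They were taken by gene name, not by a measured value: Cacna1a, Cacna1b, Cacna1c, Cacna1d and Cacna1e for high-threshold pores, Cacna1h and Cacna1i for low-threshold pores, and Cacna2d1, Cacna2d2 and Cacna2d3 for the alpha2delta subunits. They are 10 of the 55416 genes in the count files, and all 10 passed the filter on low counts in every comparison. No member passed an adjusted p of 0.05 in any of the 9 comparisons. The share of all genes that passed ran from 0% to 8.39% over them. It was 0% for formalin against no injection and for the interaction of genotype and formalin. The largest fitted difference was that of Cacna1e in the interaction of genotype and formalin (-0.95 in log2, adjusted p = 0.163). Its level was 20.2 to 41.6 CPM in animal totals, where CPM are counts scaled to 1000000 per library.

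A calcium channel opens when the membrane depolarises and lets calcium into the cell. The alpha1 pore subunit sets the voltage range and the drug sensitivity, while beta and alpha2delta subunits govern how many channels reach the membrane and the nerve ending. High-threshold channels serve transmitter release at the central terminals of sensory neurons and calcium signalling in the cell body, and low-threshold (T-type) channels open near the resting potential and set excitability. In dorsal root ganglia the N-type channel of Cacna1b and the alpha2delta protein of Cacna2d1 are known as targets of pain drugs, ziconotide for the first and gabapentin and pregabalin for the second.

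The study asked what loss of Prdm12, which encodes a zinc-finger regulator needed for nociceptor development, changes in ganglia labelled formalin or noninjected. Formalin is an agent used to produce inflammatory pain. Ganglia L3 to L5 were taken from 10 adult C57Bl6 animals, and each gave 1 library labelled formalin and 1 labelled noninjected. All animals, controls included, carried floxed Prdm12 alleles (P12 Fl/Fl) and had received tamoxifen, with dissection 1 month later. Animals called icKO (inducible conditional knockout) also carried an inducible Cre, given as AdvCreERT2 in the sample characteristics and as Rosa26CreERT2 in the series text. The first name is that of a sensory neuron driver and the second that of a driver active in most cells, so which cells lost Prdm12 depends on a record that is not settled here.

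The genotype record differs too. The genotype in the sample title and the genotype word in the deposited name disagree for 4 of the 10 animals, those titled control 1, control 4, icKO 2 and icKO 3. Animals are called here by their titles, and groups follow the deposited name unless stated. Deposited controls were the animals titled control 2, 3 and 5 and icKO 2 and 3 (3 females, 2 males). Deposited icKO were those titled control 1, control 4, icKO 1, 4 and 5 (2 females, 3 males). Prdm12 itself lay at 73.1 to 101 CPM in the 5 deposited controls and at 18.2 to 32.7 CPM in the 5 deposited icKO animals, a difference of -1.96 in log2 (exact two-sided permutation test over animals, p = 0.00794, the smallest that 5 against 5 allows). Grouped by title, the difference was -0.73 and the groups overlapped (exact permutation test, p = 0.238). Genotype was therefore also compared by title and in the 6 animals on which both records agree, control 2, 3 and 5 and icKO 1, 4 and 5.

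The library of icKO 1 after formalin held 2829 counts and only 6 on the members, and it was left out. The other 19 libraries held 11763893 to 22392635 counts, and a member's count in a library ran from 96 (Cacna1i) to 8668 (Cacna2d1). Markers of neurons were high in every library, with 5800 to 9990 CPM over the 6 pan-neuronal genes, none of them at 0. The formalin libraries of icKO 4 and icKO 5 stood apart. They had the highest sums over the 4 neutrophil markers (2640 and 1270 CPM, against 146 to 962 in the other 17 libraries) and over the 4 erythroid markers (1060 and 1290 CPM, against 95.7 to 560). The icKO 5 formalin library also held 1640 CPM of the 6 skeletal muscle markers and the lowest pan-neuronal sum. Values without these 2 libraries are given beside the formalin comparisons. The deposited icKO formalin group then holds only control 1 and control 4, both titled control. No formalin library of an animal that both records call icKO remains in it.

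The members' levels spanned a wide range. Levels of different genes are given as CPM per kb of merged exons (GENCODE M21, GRCm38, another release than the one counted with), over the 10 noninjected libraries. Among the high-threshold pores, Cacna1b was highest at 20.7 ± 2.42 CPM per kb (SD, n = 10). Cacna1a, the P/Q-type pore of fast synapses, followed at 9.95 ± 1.38 CPM per kb. The L-type pore gene Cacna1c, which links calcium entry to gene expression, stood at 5.48 ± 0.591 CPM per kb. These 3 genes made up most of the high-threshold signal. Cacna1d, the other L-type pore gene, reached 1.51 ± 0.159 CPM per kb, and Cacna1e, the R-type pore gene, 1.05 ± 0.415 CPM per kb.

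Of the T-type pores, Cacna1h, the main T-type gene of small and medium sensory neurons, stood at 8.32 ± 1.66 CPM per kb and Cacna1i at 1.06 ± 0.285 CPM per kb. The low-threshold genes thus took 19 ± 1.88% of the summed pore level per kb over 19 libraries, with a range of 16 to 23.1%. Group means of that share were 19% in noninjected controls, 19% in formalin controls, 19.8% in noninjected icKO and 17.9% in formalin icKO libraries, closer together than the libraries of any one group. Cacna1b alone held 43.3 ± 1.85% of the pore level, and the Cav2 genes Cacna1a, Cacna1b and Cacna1e together 66.1 ± 1.54%. These shares cover the member pore genes only and depend on merged exon length, and they were not computed per coding length. For single genes the highest library exceeded the lowest by 1.58 times (Cacna1d) to 3.25 times (Cacna1e).

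Cacna2d1 was the highest of all 10 members at 27.1 ± 2.84 CPM per kb and was above Cacna1b in 10 of 10 noninjected libraries, although their ranges met. Cacna2d2 lay at 7.89 ± 1.45 and Cacna2d3 at 5.91 ± 1.12 CPM per kb. Cacna2d2 encodes another gabapentin-binding subunit, while the Cacna2d3 protein does not bind the drug. In the order Cacna2d1, Cacna1b, Cacna1a, Cacna1h, Cacna2d2, Cacna2d3, Cacna1c, Cacna1d, Cacna1i, Cacna1e, only the steps from Cacna1b to Cacna1a and from Cacna1c to Cacna1d separated neighbours with no overlap of their ranges. Measured per kb of the longest coding sequence instead, a choice made after seeing the data, Cacna2d1 (102 CPM per kb) and Cacna1b (29.5) stayed first and second and Cacna1d, Cacna1e and Cacna1i stayed the lowest 3. Cacna1c then stood at 17.4 CPM per kb, above Cacna1a (16.0) and Cacna1h (11.5). Its merged exons span 21.2 kb and its longest coding sequence 6.67 kb.

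**Figure D1:**
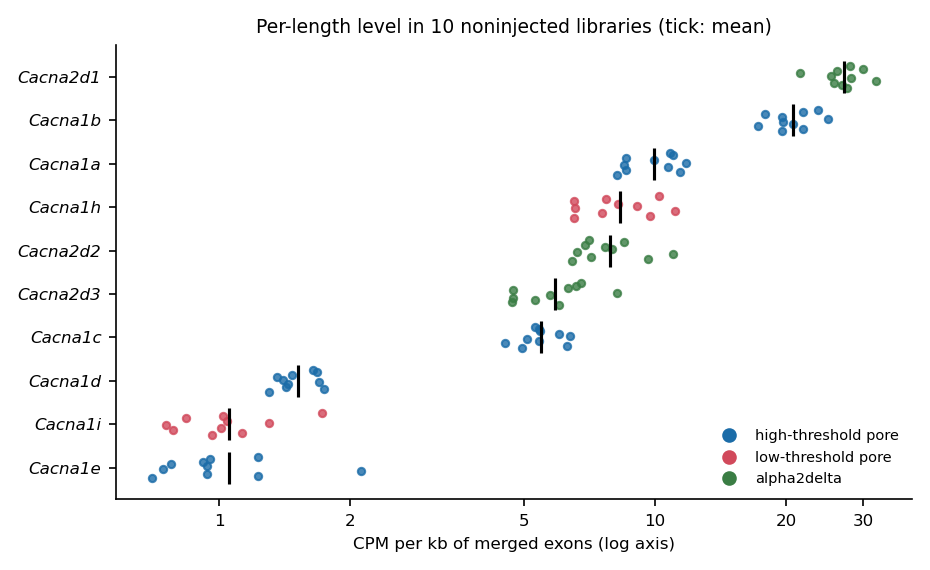
Each point is 1 of 10 noninjected libraries, placed by its level in CPM per kb of merged exons on a log axis, and the black tick is the gene's mean. Cacna2d1 and Cacna1b lie highest at 27.1 and 20.7 CPM per kb, and Cacna1d, Cacna1i and Cacna1e lie lowest at 1.51 to 1.05 CPM per kb.

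The sequences before the start sites are shown for the 3 alpha2delta genes and for Cacna1e, because the levels of Cacna2d1 and Cacna1e followed each other over the 19 libraries (Pearson r = 0.80) and those of Cacna2d2 and Cacna2d3 did so less. They are the 250 bases upstream of the RefSeq start (GRCm38.p6), 5′ to 3′ on the gene's strand, with the GC box (GGGCGG or its complement CCGCCC) in capitals.
Cacna2d1 (chr5:15934441-15934690, plus strand): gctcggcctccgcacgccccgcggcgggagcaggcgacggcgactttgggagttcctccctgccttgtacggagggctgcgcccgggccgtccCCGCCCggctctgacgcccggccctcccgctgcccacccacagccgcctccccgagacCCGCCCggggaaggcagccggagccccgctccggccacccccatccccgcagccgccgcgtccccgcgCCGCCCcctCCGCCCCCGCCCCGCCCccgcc
Cacna2d2 (chr9:107399630-107399879, plus strand): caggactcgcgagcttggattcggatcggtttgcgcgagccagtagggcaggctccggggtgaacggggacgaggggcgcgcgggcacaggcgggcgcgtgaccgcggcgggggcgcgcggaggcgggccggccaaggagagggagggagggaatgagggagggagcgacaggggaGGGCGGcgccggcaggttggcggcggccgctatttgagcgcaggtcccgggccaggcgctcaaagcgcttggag
Cacna2d3 (chr14:29721865-29722114, minus strand): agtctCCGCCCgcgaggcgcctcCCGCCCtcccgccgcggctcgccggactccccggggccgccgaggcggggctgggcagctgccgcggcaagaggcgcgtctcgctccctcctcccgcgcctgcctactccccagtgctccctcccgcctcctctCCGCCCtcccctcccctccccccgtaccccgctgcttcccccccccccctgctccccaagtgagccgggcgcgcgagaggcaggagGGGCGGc
Cacna1e (chr1:154725921-154726170, minus strand): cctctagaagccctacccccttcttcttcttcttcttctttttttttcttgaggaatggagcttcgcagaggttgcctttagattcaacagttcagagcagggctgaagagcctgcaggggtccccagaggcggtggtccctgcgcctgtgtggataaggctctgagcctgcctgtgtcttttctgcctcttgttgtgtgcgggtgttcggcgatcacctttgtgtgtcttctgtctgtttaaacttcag
The alpha2delta windows were GC-rich at 82.4% (Cacna2d1), 74.4% (Cacna2d2) and 80.0% (Cacna2d3), and they held 6, 1 and 4 GC boxes with overlapping matches counted. The Cacna1e window had 52.0% GC and 0 GC boxes, close to the 52.4% median GC of the 32851 promoters of the same length. A GC box occurred in 32.7% of those promoters on either strand. None of the 4 windows held TATAAA, found in 12.4% of promoters, or CACGTG, found in 6.02%, on either strand. Cacna2d1 and Cacna1e, whose levels followed each other, thus had unlike windows. Of the 10 members, 8 matched an entry of the promoter table, and Cacna1a and Cacna1h did not.

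In ganglia without injection, 9 of 10 members had a positive fitted difference between deposited icKO and control, and none passed the test. The 5 control libraries for Cacna2d3, control 2, 3 and 5 and icKO 2 and 3 in that order, held 40.9, 46.2, 50, 41.1 and 54.9 CPM. The icKO libraries, control 1 and 4 and icKO 1, 4 and 5, held 52.6, 41.2, 71.4, 57.6 and 59.1 CPM. The last 3 lay above every control, and control 1 and control 4 lay within the control range. The log2 fold of 0.28 ± 0.13 (SE) had an adjusted p of 0.179 in edgeR's quasi-likelihood test. Cacna1i, the lowest-count member, went from 8.96 ± 1.64 CPM (SD, n = 5) in controls to 11.9 ± 3.14 CPM (SD, n = 5) in icKO, a log2 fold of 0.43 ± 0.21 (SE, adjusted p = 0.203). Cacna1b went from 192 ± 18.1 to 220 ± 21.4 CPM (SD, n = 5 each), a log2 fold of 0.22 ± 0.12 (SE, adjusted p = 0.243). In all 3 genes the groups overlapped.

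The other members ran from -0.06 (Cacna1d) to 0.22 (Cacna1h) in log2. By edgeR, 0 of 10 members passed, where 8.39% of the 17931 genes tested did. At an unadjusted p under 0.05 the count was 1 member (Cacna2d3), against 26.4% of all genes. DESeq2 called 0 members, beside 2261 of 17931 genes. The median log2 fold was 0.20 over the members and -0.01 over all genes. No member had groups that did not overlap, against 8.24% of genes.

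**Figure D2:**
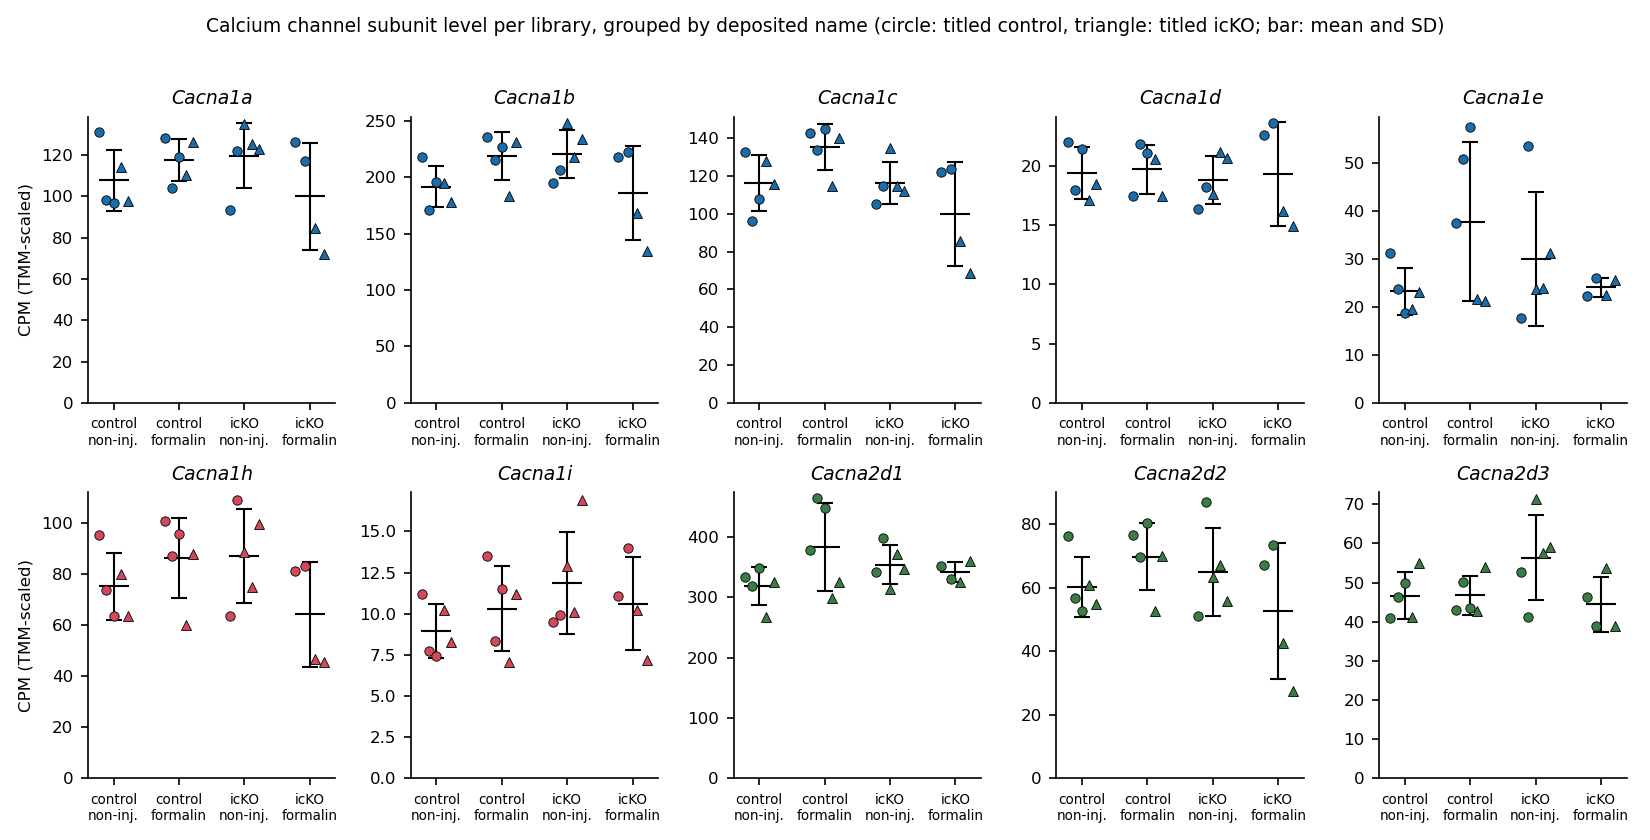
CPM of each gene in each of the 19 libraries (y axis from 0, a scale of its own per gene), grouped by deposited genotype and agent, with the mean and SD as bars, circles for animals titled control and triangles for animals titled icKO. The icKO formalin groups of Cacna1a, Cacna1b, Cacna1c, Cacna1h and Cacna2d2 split into 2 higher circles and 2 lower triangles, the icKO 4 and icKO 5 libraries.

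After formalin, 9 of 10 members had a negative fitted difference between deposited icKO and control. Cacna1e differed most. In the 5 deposited control libraries control 2 had 37.4 CPM, control 3 had 50.8, control 5 had 57.5, icKO 2 had 21.6 and icKO 3 had 21.3. In the deposited icKO libraries control 1 had 22.3 CPM, control 4 had 26.0, icKO 4 had 22.5 and icKO 5 had 25.6. The 3 high libraries were the 3 animals that both records call control, and the 2 deposited controls titled icKO lay at the icKO level. The log2 fold was -0.75 ± 0.28 (SE), with an adjusted p of 0.16, and -0.62 (adjusted p = 0.645) without the formalin libraries of icKO 4 and icKO 5.

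Cacna1c held 143, 134, 145, 115 and 140 CPM in the control libraries of control 2, 3 and 5 and icKO 2 and 3, and 122, 124, 85.4 and 68.5 CPM in those of control 1, control 4, icKO 4 and icKO 5. Both last libraries lay below every control and the first 2 within the control range. Its log2 fold was -0.40 ± 0.14 (SE, adjusted p = 0.122). It became -0.53 and passed at 0.0469 when the animal control 4 was left out, among 503 of 17815 genes. Without the formalin libraries of icKO 4 and icKO 5 it was -0.13 (adjusted p = 0.782). The alpha2delta gene Cacna2d1 went from 383 ± 72.7 CPM (SD, n = 5) in controls to 342 ± 16.9 CPM (SD, n = 4) in icKO, a log2 fold of -0.22 ± 0.10 (SE, adjusted p = 0.25), and of -0.16 (adjusted p = 0.713) without those 2 libraries.

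The remaining members ran from -0.42 (Cacna1h, adjusted p = 0.313) and -0.40 (Cacna2d2, adjusted p = 0.395) to 0.08 (Cacna1i). By edgeR 0 of 10 members passed, where 3.89% of genes did, and DESeq2 called 0 members beside 1223 of 17931 genes. At an unadjusted p under 0.05 there were 3 members, Cacna1c, Cacna1e and Cacna2d1, against 18.6% of genes. No member's groups were free of overlap, against 5.79% of genes. The members' median log2 fold was -0.21, and it was -0.03 without the 2 libraries that stood apart, when Cacna1h was -0.07 and Cacna1a (0.06), Cacna1b (0.02), Cacna1d (0.22) and Cacna2d2 (0.0058) turned positive.

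The libraries of icKO 4 and icKO 5 after formalin were the lowest 2 of 19 for 6 of the 10 members, Cacna1a, Cacna1b, Cacna1c, Cacna1d, Cacna1h and Cacna2d2, as they were for 4.97% of the 17931 genes. Cacna1h, for example, held 46.9 and 45.8 CPM there against 60 to 109 CPM in the other 17 libraries. Cacna2d2 held 42.7 and 27.5 CPM against 51.2 to 87.2 CPM. The noninjected libraries of the same animals were not low: Cacna1h stood at 75.2 and 99.6 CPM in them and Cacna2d2 at 67.3 and 56.0 CPM. For Cacna1e, Cacna1i and Cacna2d1 both libraries lay within the range of the others, and Cacna2d3 held 53.7 and 38.8 CPM against 38.9 to 71.4 CPM. In the formalin icKO group the skeletal muscle sum ran from 9.56 to 1640 CPM (9.27 to 24.3 in formalin controls), the neutrophil sum from 580 to 2640 (146 to 695), the erythroid sum from 266 to 1290 (96.6 to 224) and the pan-neuronal sum from 5800 to 8360 (7550 to 9000). All 6, 4, 4 and 6 markers of these lists were detected in every library, and their part in the members' differences was not tested. In bulk tissue, fewer cells of a type and less RNA per cell cannot be told apart.

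Formalin was compared with no injection within each genotype, in a fit with group and sex but no term for the animal. An animal's libraries thus counted as independent in these tests, and changes within each animal are described after them. In the 5 deposited controls all 10 fitted log2 differences were at or above 0 and in the deposited icKO 9 of 10 were negative, with medians of 0.20 and -0.24. Without the formalin libraries of icKO 4 and icKO 5, the icKO median was -0.0074 and 6 of 10 were negative. The icKO formalin libraries were then those of control 1 and control 4 alone. In both genotypes, with all 19 libraries, edgeR called 0 of 10 members and 0% of genes. At an unadjusted p under 0.05 there were 2 members in controls (Cacna1e and Cacna2d1, beside 3.83% of genes). In icKO there was 1 (Cacna2d3, beside 23.3% of genes). DESeq2 called 0 members in each, beside 0 genes in controls and 1120 of 17931 genes in icKO. Pooled over genotypes the members ran from -0.16 to 0.13 in log2. There edgeR also called 0 members and 0% of genes, with 0 members (4.84% of genes) at an unadjusted p under 0.05. DESeq2 called 0 members there, beside 2 of 17931 genes.

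Cacna1e had the widest differences within animals. From the noninjected to the formalin library it went from 18.7 to 57.5 CPM in control 5, from 23.6 to 50.8 in control 3, from 31.1 to 37.4 in control 2, from 19.6 to 21.6 in icKO 2 and from 23.1 to 21.3 in icKO 3, all deposited controls. In the deposited icKO it went from 53.4 to 26.0 CPM in control 4, from 31.1 to 25.6 in icKO 5, from 24.0 to 22.5 in icKO 4 and from 17.7 to 22.3 in control 1. The direction was thus upward in 4 of 5 deposited controls and downward in 3 of 4 deposited icKO animals. Cacna2d1 was upward in 5 of 5 controls, by 0.00 to 0.54 in log2, and downward in 2 of 4 icKO animals. Cacna2d3 was downward in 4 of 4 icKO animals, by -0.61 to -0.09 in log2, and upward in 3 of 5 controls.

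**Figure D3:**
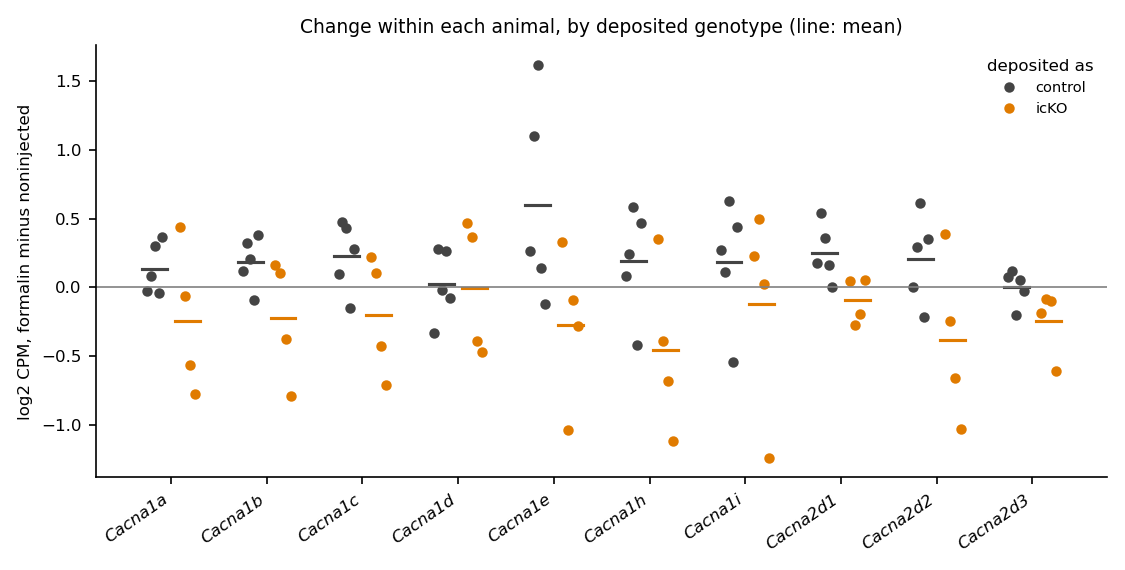
Each point is 1 animal with both libraries, placed by its log2 CPM after formalin minus that of its noninjected library, grey for the 5 deposited controls and orange for the 4 deposited icKO animals, with a line at the mean. Cacna1e has the widest spread, from -1.04 to 1.62, and most genes have control and icKO points that overlap.

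The difference between these formalin effects was tested as an interaction. It was negative for 9 of 10 members, with a median log2 of -0.40 against 0.03 over all genes. The largest was Cacna1e at -0.95 ± 0.38 (SE, adjusted p = 0.163). The N-type pore gene Cacna1b had -0.43 ± 0.17 (SE, adjusted p = 0.153), Cacna2d1 -0.33 ± 0.13 (SE, adjusted p = 0.165) and Cacna1h -0.64 ± 0.29 (SE, adjusted p = 0.199). None passed: edgeR called 0 of 10 members and 0% of genes. At an unadjusted p under 0.05 there were 5 members, these 4 and Cacna1c, beside 23.4% of genes. DESeq2 called 0 members, beside 850 of 17931 genes. With the animal control 1 left out, Cacna1a passed (log2 -0.57, adjusted p = 0.0425), among 1762 of 17819 genes. Without the formalin libraries of icKO 4 and icKO 5 the median was -0.19, with control 1 and control 4 the only icKO formalin libraries left. The members then ran from -0.83 (Cacna1e) to 0.29 (Cacna1d), with Cacna1b at -0.21 and Cacna1h at -0.28. This comparison and the 2 within agents share libraries, so their values are not independent of each other.

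**Figure D4:**
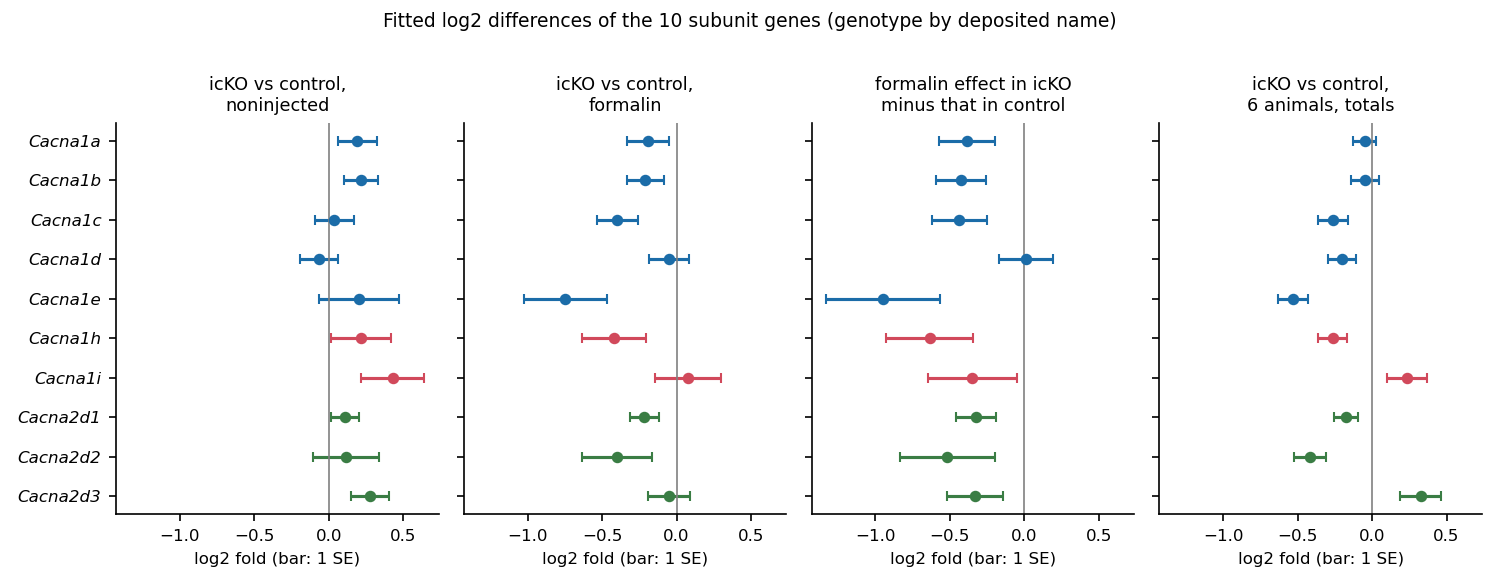
Fitted log2 differences (points) with 1 SE (bars) for the 10 genes in 4 comparisons, coloured by class as high-threshold pore (blue), low-threshold pore (red) and alpha2delta (green). In noninjected libraries 9 of 10 points are positive, after formalin and in the interaction 9 of 10 are negative, and Cacna1e lies farthest from 0 in the last 3 panels.

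Animal totals, in which an animal's libraries are summed, were compared under each genotype record. The total of icKO 1 was its noninjected library alone. By deposited name the members ran from -0.23 (Cacna1e) to 0.27 (Cacna1i) in log2, with a median of -0.04. Of 10 members edgeR called 0, against 1.08% of the 19441 genes tested. Only Cacna1i had an unadjusted p under 0.05, beside 16.9% of genes. DESeq2 called 0 members, beside 806 of 19441 genes. Cacna1i had 7.98 to 12.1 CPM in deposited controls and 10.2 to 12.9 CPM in deposited icKO, so the groups overlapped.

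By title the members ran from -0.44 to 0.24 in log2 with a median of -0.16. There edgeR called 0 of 10 members and 0% of genes, while 5 members and 9.34% of genes had an unadjusted p under 0.05. DESeq2 called 0 members, beside 67 of 19441 genes. Cacna1d was the 1 member whose title groups did not overlap, at 19.7 to 21.1 CPM in the 5 titled controls and 17.4 to 18.9 CPM in the 5 titled icKO animals, as 1.27% of genes did. That gap is small in size, and by deposited name the ranges of Cacna1d, 17.9 to 21.1 and 17.4 to 20.2 CPM, overlapped.

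In the 6 animals on which both records agree, Cacna1e held 33.7, 36.0 and 37.1 CPM in control 2, 3 and 5, and 23.7, 23.1 and 27.8 CPM in icKO 1, 4 and 5. The 3 controls lay above the 3 icKO animals with no overlap, and the log2 fold was -0.53 ± 0.10 (SE), with an adjusted p of 0.0669. In the noninjected libraries alone these controls held 31.1, 23.6 and 18.7 CPM, and these icKO animals 23.6, 24.0 and 31.1 CPM. After formalin the controls held 37.4, 50.8 and 57.5 CPM, and icKO 4 and icKO 5 held 22.5 and 25.6 CPM. In totals, Cacna2d2 held 76.2, 62.5 and 65.5 CPM in the controls and 63.4, 52.0 and 40.1 CPM in the icKO animals (log2 -0.42 ± 0.11 SE, adjusted p = 0.117). Here icKO 1 overlapped the controls. Cacna2d3 went the other way, with 41.6, 48.0 and 46.6 CPM in controls and 71.5, 55.1 and 47.6 CPM in icKO animals (log2 0.33 ± 0.14 SE, adjusted p = 0.264).

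Of the 10 members edgeR called 0 in these animals, beside 0.897% of the 19063 genes tested, and DESeq2 called 1, Cacna1e (adjusted p = 0.00287), among 1036 genes. At an unadjusted p under 0.05 there were 4 members, Cacna1c, Cacna1e, Cacna1h and Cacna2d2, beside 19.1% of genes. Groups did not overlap for 3 members, Cacna1d, Cacna1e and Cacna2d1, as for 22.8% of all genes. The Cacna1e call was gained when the animal icKO 5 was left out (log2 -0.61, adjusted p = 0.0357), among 235 of 18712 genes. Without the icKO 5 formalin library both Cacna1e (-0.46, adjusted p = 0.0377) and Cacna2d3 (0.44, adjusted p = 0.0396) passed, among 1391 of 18636 genes. Without those of icKO 4 and icKO 5 again both passed (-0.43, adjusted p = 0.0177, and 0.47, adjusted p = 0.0103), among 2007 of 17956 genes. The icKO totals were then noninjected libraries alone, against control totals of both agents. Genotype and agent cannot be told apart in that fit. With only the icKO 5 formalin library left out, the totals of icKO 1 and icKO 5 were noninjected alone. Of the 4 animals outside the 6, control 1 had 20.2 CPM of Cacna1e and control 4 had 41.6 CPM, the lowest and the highest of all 10, and both were deposited as icKO. The animals icKO 2 and icKO 3, deposited as controls, had 20.5 and 22.1 CPM.

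Members differed in how they moved together over the 19 libraries, which are given as descriptions since they share animals, groups and depth. Cacna1a, Cacna1b, Cacna1c, Cacna1h and Cacna2d2 formed a block with Pearson r of log2 CPM between 0.80 and 0.91. Without the 2 formalin libraries that stood apart the same pairs had r from 0.55 to 0.81 over 17 libraries. Cacna1e and Cacna2d1 had an r of 0.80 with and without them, and Cacna2d3 was nearly unrelated to Cacna2d1 at -0.06.

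**Figure D5:**
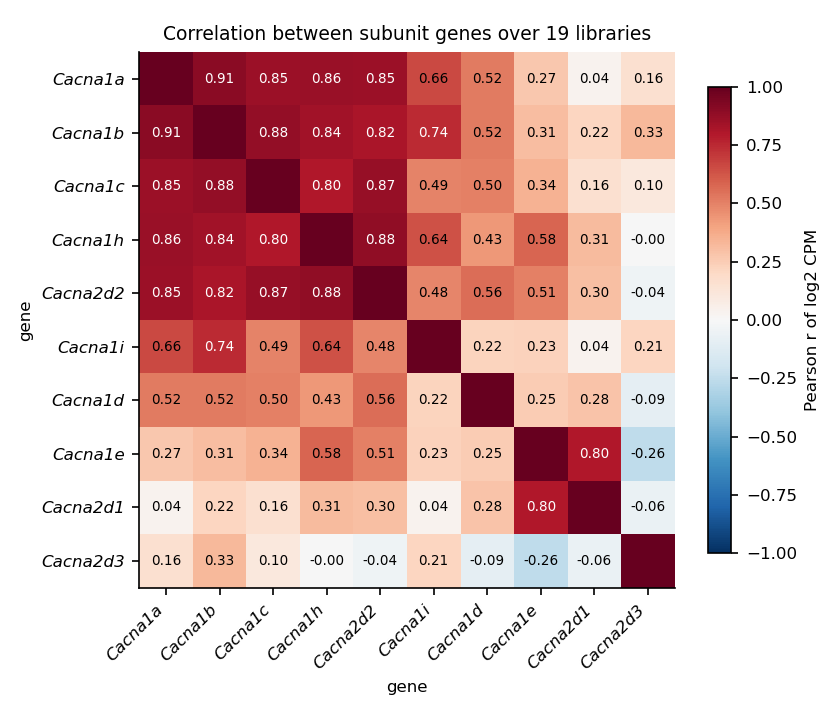
Pearson r of log2 CPM between each pair of genes over 19 libraries, red for positive and blue for negative. The block of Cacna1a, Cacna1b, Cacna1c, Cacna1h and Cacna2d2 has r of 0.80 to 0.91, and Cacna1e pairs with Cacna2d1 at 0.80.

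Against summed marker genes of sensory neuron types, the members again split. Cacna2d1 (r = 0.73) and Cacna1e (r = 0.72) followed the summed 6 markers of peptidergic nociceptors, the neurons that release pain peptides. Without the 2 libraries r was 0.79 and 0.74. Calca was the largest part of that sum, with a median of 1530 CPM over the libraries against 395 for Tac1, the next. Cacna2d3 followed the 7 markers of A-fibre mechanoreceptors and proprioceptors (r = 0.88, and 0.91 without the 2 libraries). It also followed the sum over the 4 central nervous system markers, of which 2 passed the filter on low counts (r = 0.88). That sum was nearly all Slc17a7, at 52.7 to 171 CPM over the libraries, with Gfap at 1.28 to 7.13 CPM. Cacna2d2 was most like the markers of C-fibre low-threshold touch receptors, of which 3 of 4 matched a gene (r = 0.83, and 0.66 without the 2 libraries). This likeness was shared by Cacna1h (r = 0.765), Cacna1c (0.76), Cacna1b (0.721) and Cacna1a (0.694). Without the 2 libraries these had r of 0.558, 0.498, 0.456 and 0.389. Cacna1c (0.718) and Cacna1b (0.704) were about as like the non-peptidergic nociceptor sum (0.506 and 0.459 without the 2 libraries). A-fibre sums ran from 2100 to 4140 CPM in noninjected icKO libraries and from 2350 to 2980 CPM in noninjected controls, and their part in the Cacna2d3 values was not tested. Cacna2d3 was highest, at 71.4 CPM, in the icKO 1 noninjected library that also had the highest A-fibre sum.

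Among 11171 genes whose log2 CPM averaged 3 or more, the gene most like Cacna1c was Camk2a (r = 0.96), a calcium-dependent kinase, and the gene most like Cacna2d3 was Chgb (r = 0.96), a protein of secretory granules. Cacna1b was nearest to Unc13a (r = 0.95), a priming factor of synaptic vesicles. Cacna1e was nearest to Kcnk2 (r = 0.91), a background potassium channel, and Cacna2d1 to Rit2 (r = 0.91). Each likeness is over 19 libraries. Cacna1d had no near neighbour, the highest being Dnhd1 at 0.78. For the others the highest were Rai1 for Cacna1a (0.94), Gpr162 for Cacna1h (0.91), Setd1b for Cacna1i (0.90) and Celsr3 for Cacna2d2 (0.94).

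Genes taken by name as beta, gamma and further alpha subunits were tested as a list of 17, of which 12 passed the filter on low counts in the noninjected comparison. There 5 were higher and 1 lower in deposited icKO, where 8.39% of all genes were called. The list's median log2 fold was 0.39 against -0.01 over all genes. The pan-neuronal sum was also higher there, at 8030 to 9990 CPM (median 8760) in icKO and 6700 to 8120 CPM (median 7530) in controls over 6 of 6 markers, none at 0, and its part in these calls was not tested. Cacnb3, a beta subunit that assembles with N-type pores, rose from 160 ± 12.7 to 239 ± 30 CPM (SD, n = 5 each), a log2 fold of 0.59 ± 0.11 (SE, adjusted p = 0.00534). Cacng5 rose by 0.70 ± 0.13 (SE, adjusted p = 0.00499). These calls held whichever animal was left out. Cacnb4, another beta subunit, fell by 0.32 ± 0.09 (SE, adjusted p = 0.0325). Of its merged exons 16.0% lie over A430018G15Rik on the other strand, and the libraries do not mark strand, so its value is uncertain.

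Of the genes named gamma, Cacng3 (1.14 in log2, adjusted p = 0.0149) and Cacng7 (0.42, adjusted p = 0.0319) rose too. So did the alpha2delta-like gene Cachd1 (0.34, adjusted p = 0.0395). Whether the products of the genes named gamma act in calcium channels was not tested. Cacng3 had only 0.815 to 1.47 CPM as group means. Its call was lost without control 3 (adjusted p = 0.0563), and without a sex term (0.184). The Cacng7 call was lost without control 2, control 3, icKO 1, icKO 2 or icKO 3 in turn (adjusted p = 0.052 to 0.136). That of Cachd1 was lost without control 2, control 3, icKO 1, icKO 2 or icKO 5 (0.0507 to 0.156), and that of Cacnb4 without control 2, 3 or 5 or icKO 1, 3 or 5 (0.0523 to 0.0909). After formalin, 0 of 12 passed by edgeR, beside 3.89% of genes, with 1 at an unadjusted p under 0.05, beside 18.6%. In totals by deposited name 0 of 15 passed, beside 1.08% of genes, with 4 at an unadjusted p under 0.05, beside 16.9%.

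Of 25 channel partner and regulator genes, all were tested, and 2 were higher and 1 lower in noninjected icKO ganglia, where 8.39% of all genes were called. Stac2, an adaptor of L-type channels, rose by 0.43 ± 0.12 (SE, adjusted p = 0.0309). Calm2, 1 of the calmodulin genes, fell by 0.34 ± 0.08 (SE, adjusted p = 0.0194). Both calls were lost without control 3 and without icKO 1, and that of Stac2 also without control 2, icKO 3 or icKO 4. Adjusted p then reached 0.128 for Stac2 and 0.116 for Calm2.

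After formalin, Thbs1, which encodes a thrombospondin that can bind alpha2delta, was higher in deposited icKO, at 63.0 ± 16.7 CPM (SD, n = 4) against 28.7 ± 15.4 CPM (SD, n = 5). Its log2 fold was 1.66 ± 0.43 (SE, adjusted p = 0.0457). Kcnma1, a calcium-activated potassium channel, was lower, at 67.8 ± 7.16 against 89.0 ± 2.75 CPM (log2 -0.38 ± 0.10 SE, adjusted p = 0.0418). The Thbs1 call was lost without control 2, 3, 4 or 5 or icKO 3, 4 or 5 (adjusted p = 0.0537 to 0.238), and the log2 fold was 1.13 with no sex term (adjusted p = 0.199). The Kcnma1 call was lost without control 1, 2, 3 or 5 or icKO 2, 3, 4 or 5 (adjusted p = 0.052 to 0.199). Without the formalin libraries of icKO 4 and icKO 5, Thbs1 was 1.06 (adjusted p = 0.48) and Kcnma1 -0.28 (adjusted p = 0.434). The icKO group was then control 1 and control 4 alone. Fitted on the formalin libraries alone, the adjusted p was 0.214 for Thbs1 and 0.147 for Kcnma1. After formalin 1 of the 25 was higher and 1 lower, where edgeR called 3.89% of all genes. In totals by deposited name 0 of 25 passed by edgeR, beside 1.08% of genes, with 4 at an unadjusted p under 0.05, beside 16.9%.

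Small overlaps with genes on the other strand also touch some members: 4.67% of the merged exons of Cacna1d lie over Chdh, 3.81% of Cacna1a over Gm16183, 1.62% of Cacna1h over Tpsg1 and 1.03% of Cacna2d2 over Gm17141.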

How the data were processed

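The authors deposited raw counts for each Ensembl gene, from polyA libraries that do not mark strand, per the labels' protocols. The authors' tools, per the submitters' processing notes, were bcl2fastq 2.20.0.422, STAR 2.7.8a and featureCounts 2.0.1 on GRCm39. No source used here gives the counting settings. Of the 55416 IDs, 94% matched a symbol.

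The counts were tested in edgeR 4.0.16 (R 4.3.3) with the quasi-likelihood test, robust, TMM scaling, filterByExpr and sex as covariate. Benjamini-Hochberg adjustment ran over all genes tested, with a threshold of 0.05. Standard errors come from the fold and the F statistic. Genotype was tested on summed counts per animal, and within each agent, with formalin effects and the interaction, over 19 libraries sharing 1 dispersion. Levels are TMM-scaled CPM, and marker sums are of CPM. Member counts of 96 to 8668 a library set the counting precision. Alternatives were RLE scaling, no filter, DESeq2 1.42.0, no sex term, each animal left out, the libraries compared alone, an animal block and the libraries of icKO 5 or of icKO 4 and icKO 5 after formalin left out, the last chosen after seeing the data. The scripts were tested on simulated data. Members and lists were chosen with earlier results of these data known. Named genes are the members, Prdm12, list genes past the threshold (up to 6 a list) and the genes most like each member. The result of 1 list gene is not reported here.

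Formalin and noninjected libraries are paired by the animal in the deposited names. As a check, deviations from the group means correlated at -0.002 to 0.513 over 9 pairs, 8 of them over 0.1. Nothing in the labels says how animals were housed or libraries batched. No 2 libraries of a group agreed within sampling noise (chi-square per degree of freedom 6.76 to 91.3).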

Additional observations from a re-analysis of the deposited data

How the results depend on the processing

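No member was called in 133 of 146 alternative fits of the 9 comparisons. With no filter on low counts, edgeR called 4 members after formalin (Cacna1c, Cacna1e, Cacna1h, Cacna2d2), 1 for formalin in deposited controls (Cacna1e), 4 for formalin in deposited icKO, 5 in the interaction, 2 in totals by title and 3 in the 6 animals (Cacna1e, Cacna2d2, Cacna2d3); the cause was not tested. All genes called rose too, from 697 to 2129 after formalin and from 0 to 2519 in the interaction. DESeq2 called 1 member in the 6 animals. Leaving out 1 animal gave 0 to 1 members after formalin, in the formalin effect in icKO, in the interaction and in the 6 animals, and 0 in the others. Without the icKO 5 formalin library 2 were called in the 6 animals, and without both that and the icKO 4 formalin library 2. In these fits some or all icKO totals were noninjected libraries alone, so genotype and agent are mixed. With the animal as a replicate block, the pairing changed no call: 0 members were called in each of the 4 formalin comparisons.

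Counts of called genes over the whole table varied with the setting. Leaving out 1 animal gave 345 (without icKO 1) to 2129 in noninjected libraries, 66 (without control 3) to 1485 after formalin, 76 to 278 in totals by deposited name, 8 to 621 in the 6 animals, and 0 to 1990 and 0 to 1762 for formalin in icKO and the interaction (the highest without control 1). DESeq2 called 2261, 1223, 806, 1036, 1120 and 850 in these 6. After formalin, the libraries compared alone gave 29. Without the icKO 5 formalin library it gave 205, and without both libraries 73; the noninjected count was then 2385 and 2596, that of totals by deposited name 341 and 461 and that of the 6 animals 1391 and 2007. No sex term gave 33 in the 6 animals and 1052 after formalin, and no filter 1811, 1880, 2203, 430, 210 and 851 in totals by deposited name, the 6 animals, formalin in icKO, formalin in controls, formalin pooled and totals by title.

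Members whose sign turned were near 0 or turned with the libraries of icKO 4 and icKO 5, apart from Cacna1e in noninjected libraries. Its log2 fold there went from 0.20 with all animals to -0.0056 without control 4, whose noninjected library held 53.4 CPM. In totals by deposited name, Cacna1a was -0.0021 with no sex term and -0.0269 to 0.0826 with 1 animal left out, Cacna1b -0.0361 to 0.0928 and Cacna1h -0.139 to 0.0361; Cacna1h was 0.0475 without the icKO 5 formalin library and 0.0985 without both, where Cacna1d was 0.0040 and Cacna2d2 0.0076. In noninjected libraries, with 1 animal left out, Cacna1d was -0.102 to 0.0021 and Cacna1e -0.0056 to 0.38. After formalin, Cacna1d was -0.19 to 0.0574, Cacna1i -0.0837 to 0.236 and Cacna2d3 -0.15 to 0.0044; without the icKO 5 formalin library Cacna1d was 0.0547 and Cacna2d3 0.0008. Without both, Cacna1a was 0.0597, Cacna1b 0.0154, Cacna1d 0.22 and Cacna2d2 0.0058. In the interaction Cacna1d was -0.16 to 0.15, and -0.0212 with the replicate block. In the 6 animals, Cacna1a was -0.10 to 0.0086 and Cacna1b -0.141 to 0.0335; without the icKO 5 formalin library they were 0.0979 and 0.102, and without both 0.201 and 0.169, with Cacna1h at 0.0566.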
